A study of Mus musculus with 6 samples.

Results

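The 35 type I interferon-stimulated genes described here were taken from the count table by symbol, and all 35 had a row among its 55334 gene IDs. They were measured by polyA RNA sequencing in Lewis lung carcinoma cells, a mouse lung cancer line of C57BL origin, that expressed green fluorescent protein (GFP). JAG2KO cells carried an sgRNA against the Notch ligand gene Jag2, and Scramble cells carried a scramble sgRNA. Per the labels, both were grown as flank tumours, dissociated with Liberase and sorted for GFP in the absence of CD45 and DAPI, with 3 libraries in each group. Age, sex and strain of the mice, the number of clones and any pooling of tumours are not stated there. The JAG2KO libraries are called JagKO2, JagKO3 and JagKO4 after their columns, and the Scramble libraries Scramble1, Scramble2 and Scramble3. Whether each came from its own mouse is not stated, so the p-values describe spread that could be purely technical.

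Type I interferons are secreted when a cell detects foreign or misplaced nucleic acid, and they act through the receptor IFNAR on the same cell and on its neighbours. The kinases JAK1 and TYK2 then activate a transcription factor complex called ISGF3, which includes STAT2 and IRF9. This complex binds the interferon-stimulated response element (ISRE), a pair of GAAA half-sites found in the promoters of many interferon-stimulated genes. The genes can be grouped by role into effectors that block viral RNA, proteins or budding, sensors that detect nucleic acid, and regulators that amplify or restrain the signal. In tumour cells the same genes are read as a sign of ongoing interferon exposure.

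Promoter windows are shown first because they can hold the element through which ISGF3 acts. They let the response of genes whose windows do and do not match it be set side by side. RefSeq promoter sequences (GRCm38.p6, from 250 bases before the transcription start to 50 bases after it) were found for 24 of the 35 members. Dhx58, Ifi27, Ifi27l2a, Mx1, Mx2, Oas1b, Oas2, Parp14, Rtp4, Usp18 and Zbp1 had no entry. The 3 members with the smallest p that hold the ISRE core, a pair of GAAA with any 2 bases between them on either strand, are printed with Ifi35, the member with an entry whose difference had the largest p. Each is given 5′ to 3′ on the gene's strand, with matches to the core in capitals. Ifit1 lies at chr19:34640639-34640938 (plus strand), Oas3 at chr5:120777610-120777909 (minus strand), Ifit3b at chr19:34607707-34608006 (plus strand) and Ifi35 at chr11:101448162-101448461 (plus strand).
Ifit1: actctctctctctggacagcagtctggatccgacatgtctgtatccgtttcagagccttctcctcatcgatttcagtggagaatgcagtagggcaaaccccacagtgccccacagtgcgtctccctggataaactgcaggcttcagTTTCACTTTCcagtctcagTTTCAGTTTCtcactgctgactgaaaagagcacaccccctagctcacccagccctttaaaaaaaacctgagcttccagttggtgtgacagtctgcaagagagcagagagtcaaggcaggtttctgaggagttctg
Oas3: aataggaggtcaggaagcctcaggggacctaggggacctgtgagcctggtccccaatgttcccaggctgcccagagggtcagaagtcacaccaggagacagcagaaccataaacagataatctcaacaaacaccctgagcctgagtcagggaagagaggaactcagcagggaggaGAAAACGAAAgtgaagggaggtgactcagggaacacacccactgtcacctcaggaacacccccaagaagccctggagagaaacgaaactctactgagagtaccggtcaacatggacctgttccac
Ifit3b: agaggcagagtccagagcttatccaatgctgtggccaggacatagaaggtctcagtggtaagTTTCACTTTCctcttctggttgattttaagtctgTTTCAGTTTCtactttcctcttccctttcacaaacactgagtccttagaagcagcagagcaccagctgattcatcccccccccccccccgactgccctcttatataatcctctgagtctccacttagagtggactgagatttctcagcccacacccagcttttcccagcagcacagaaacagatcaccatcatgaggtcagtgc
Ifi35: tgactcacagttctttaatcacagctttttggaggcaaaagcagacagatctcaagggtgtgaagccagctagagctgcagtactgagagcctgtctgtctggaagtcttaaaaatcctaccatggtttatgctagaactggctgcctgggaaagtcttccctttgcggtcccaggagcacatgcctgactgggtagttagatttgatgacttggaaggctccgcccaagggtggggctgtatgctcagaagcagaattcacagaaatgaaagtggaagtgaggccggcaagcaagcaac

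In the Ifit1 window the pair of cores began at positions -104 and -85 from the transcription start, and in the Ifit3b window at -188 and -154. Ifit3 carried the same pair of 10-base matches as Ifit3b, TTTCACTTTC and TTTCAGTTTC, with the same spacing of 34 bases. The Ifi35 window held no match, which says only that these letters are not in these bases. Across members, 13 of 24 held the core (54.2%), against 1079 of all 27025 genes with RefSeq promoter sequences (3.99%). Among members that fell in JAG2KO, 9 of 18 with an entry held it, and among members not past the threshold, 4 of 6 did (Ddx58, Eif2ak2, Ifih1 and Stat2). The median log2 fold change was -1.51 with the core and -0.86 without it over members with an entry, and -1.67 with it and -0.97 without it over those that fell. Over those not past the threshold it was -0.22 with the core and -0.11 without it. These medians are a description, with no test. Members without a match, such as Irf7 and Ifit2, may carry the element outside the window or in other letters.

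**Figure D1:**
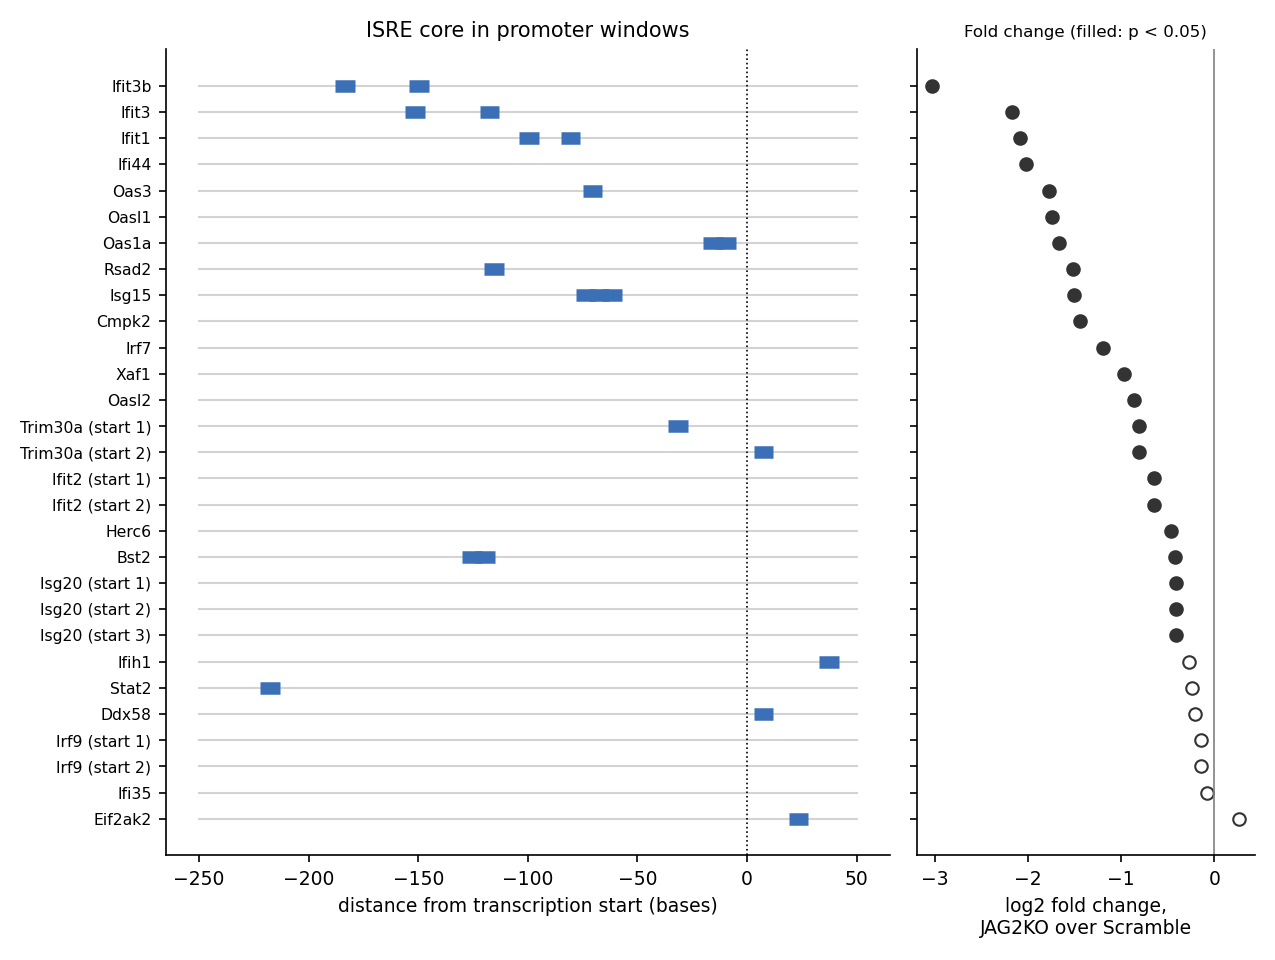
Position of the ISRE core (GAAA, any 2 bases, GAAA, on either strand; blue blocks) in the promoter windows of 24 members, in bases from the transcription start, beside each member's log2 fold change in JAG2KO over Scramble (filled points: edgeR adjusted p under 0.05). Cores are seen from Ifit3b at the top, with a log2 fold change of -3.03, to Eif2ak2 at the bottom, with 0.27.

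Library totals lay between 37036772 and 43923565 counts, so 3 counts were worth 0.068 to 0.0811 CPM (counts-per-million, scaled by trimmed-mean, or TMM, factors), and no member had fewer than 10 counts in any library. Jag2 itself had few counts, at 0.514, 0.799 and 1.11 CPM in JagKO2, JagKO3 and JagKO4 and 1.52, 1.1 and 1.02 CPM in Scramble1, Scramble2 and Scramble3, with overlapping groups (log2 fold change -0.58, SE 0.39, adjusted p = 0.318, edgeR). RNA level does not check an edit that can leave transcription intact. Of the lung and epithelial markers, Nkx2-1 and Sftpb had 0 counts in every library and Sftpc had 2 counts, both in JagKO2, while the keratin gene Krt18 averaged 307 CPM in JAG2KO and 268 CPM in Scramble. Log2 CPM correlated across genes at r = 0.991 to 0.995 within groups and 0.978 to 0.981 between them.

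Most of the listed interferon-stimulated genes were lower in JAG2KO tumour cells, on a list chosen with earlier results of these data known. Of 35 members, 27 fell, 0 rose and 8 did not pass the threshold (edgeR quasi-likelihood test, Benjamini-Hochberg adjusted p under 0.05 over all genes), where 12.5% of all 16049 tested genes fell and 11.8% rose. Eif2ak2 was called higher by edgeR without JagKO3 (adjusted p = 0.00939) and without a filter on low counts (adjusted p = 0.00906). The median member had 1.96-fold less RNA (log2 fold change -0.97), while the median over all tested genes was 0. Among 36 other interferon-stimulated genes, described below, 10 fell, 3 rose and the median log2 fold change was -0.17. A fall of at least 2-fold was called for 17 members, against 3.03% of tested genes. All 3 JAG2KO libraries lay below all 3 Scramble libraries for 24 members, which held for 20.9% of tested genes. In bulk RNA, fewer cells expressing these genes and less RNA per cell cannot be told apart.

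The 3 roles had different medians. Effectors had a median log2 fold change of -1.30, with 21 of 24 lower. Regulators had -0.81, with 4 of 7 lower, and sensors -0.52, with 2 of 4 lower. Without JagKO2 the sensor median was -0.85, with 3 lower, and without JagKO3, JagKO4, Scramble1 or Scramble2, 1 sensor was called lower. Several effectors also bind double-stranded RNA. With the Oas and Oasl genes and Eif2ak2 counted as sensors, the medians became -1.29 for 11 sensors, 8 of them lower, and -0.97 for 17 effectors, so the order of these classes depends on where those 7 genes are placed. The classes were not tested against each other, since genes are not replicates.

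**Figure D2:**
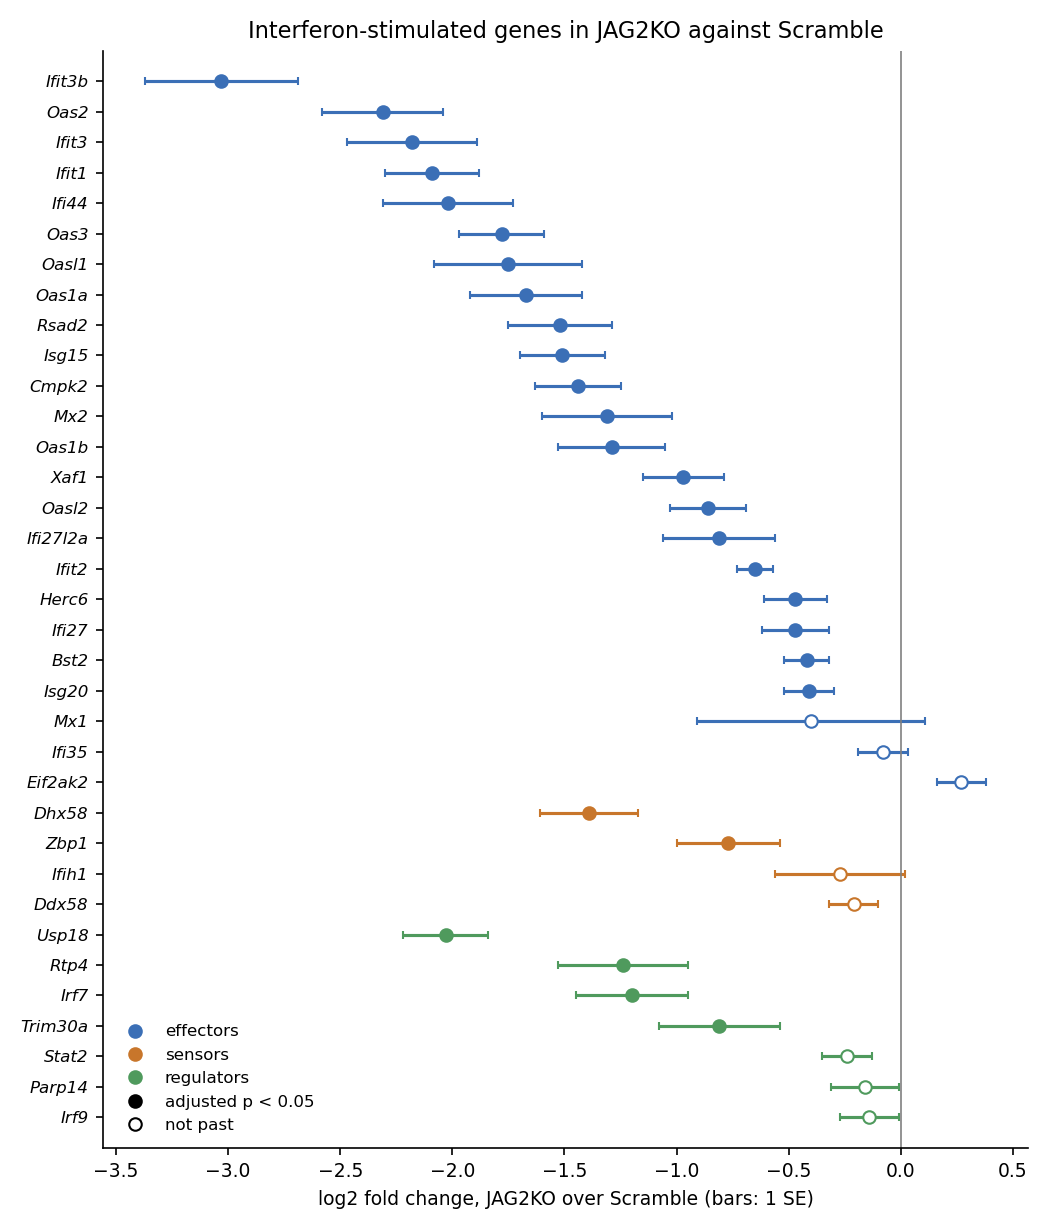
Log2 fold change in JAG2KO over Scramble for all 35 members, with 1 SE on either side, grouped by role and sorted within it (filled: edgeR adjusted p under 0.05, n = 3 libraries in each group). Effectors reach from -3.03 (Ifit3b) to 0.27 (Eif2ak2), and each role includes members on both sides of the threshold.

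The Ifit genes, whose products bind viral RNA that lacks the cap modifications of host RNA, sit together within 99.3 kb of chromosome 19 (34550694 to 34650009, GRCm38) and all 4 fell. Ifit1 had 3.43, 2.8 and 3.19 CPM in JagKO2, JagKO3 and JagKO4, against 15.1, 15.7 and 9.31 CPM in Scramble1, Scramble2 and Scramble3. The groups were far apart, with Scramble3 the lowest of its group. Its log2 fold change was -2.09 (SE 0.21, adjusted p = 2.3e-05, edgeR). Ifit3b, a close copy of Ifit3, had 0.622, 0.825 and 0.439 CPM in the JAG2KO libraries and 5.83, 6.33 and 3.21 CPM in the Scramble libraries. This was the member with the lowest log2 fold change, -3.03 (SE 0.34, adjusted p = 5.52e-05, edgeR), or 8.17-fold lower. Ifit3 fell by 2.18 on the log2 scale. Ifit2 fell less, by 0.65 (SE 0.08, adjusted p = 0.000105, edgeR), with 24 to 24.6 CPM in JAG2KO and 36.9 to 39.4 CPM in Scramble. Reads of Ifit3 and Ifit3b may be shared or lost between the copies, so the level of each is uncertain.

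The 2′-5′ oligoadenylate synthetases make a second messenger that activates the ribonuclease RNase L, and the Oasl proteins are their relatives. All 6 members fell. Oas3 had 4.68, 4.92 and 3.21 CPM in JagKO2, JagKO3 and JagKO4, against 16.5, 15.9 and 11.5 CPM in Scramble1, Scramble2 and Scramble3. Oas2 had 8, 4.18 and 3.21 CPM in the JAG2KO libraries and 29.6, 26.9 and 19.3 CPM in the Scramble libraries. Neither gene overlapped between groups, and JagKO2 was the highest JAG2KO library only for Oas2. Log2 fold changes were -1.78 for Oas3 (SE 0.19, adjusted p = 4.87e-05, edgeR) and -2.31 for Oas2 (SE 0.27, adjusted p = 9.41e-05, edgeR). Oasl1, Oas1a, Oas1b and Oasl2 also fell, with log2 fold changes of -1.75, -1.67, -1.29 and -0.86. Oas1b carries a premature stop in most laboratory mouse strains, so its RNA does not stand for a full-length protein there. Oas genes are also copies of one another and can share reads, and Oasl1 shares 38 exon bases with an opposite-strand model.

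Among genes with other direct antiviral roles, 5 of 7 fell. Rsad2 encodes viperin and Cmpk2 a nucleotide kinase that supplies it, and the pair are neighbours on chromosome 12. Cmpk2 had 5.6, 3.54 and 3.53 CPM in JagKO2, JagKO3 and JagKO4, against 11.9, 12.2 and 10.3 CPM in Scramble1, Scramble2 and Scramble3. Rsad2 had 4.76, 3.89 and 3.51 CPM in the JAG2KO libraries and 15.1, 12 and 7.74 CPM in the Scramble libraries. Both genes separated the groups, and the Rsad2 values in Scramble covered a wide range. Log2 fold changes were -1.44 for Cmpk2 (SE 0.19, adjusted p = 0.000235, edgeR) and -1.52 for Rsad2 (SE 0.23, adjusted p = 0.000563, edgeR).

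Bst2, or tetherin, holds budding virus at the cell surface and was the most abundant member per length of transcript, at 398 ± 55.6 TPM (transcripts-per-million) in JAG2KO and 522 ± 56.4 TPM in Scramble (SD, n = 3). It fell by 0.42 on the log2 scale (adjusted p = 0.0102, edgeR), but lost its call without JagKO4, Scramble1 or Scramble2 (adjusted p = 0.0534 to 0.0549). Isg20, an exonuclease gene, fell by 0.41 (adjusted p = 0.015, edgeR) and was not past the threshold without Scramble1 or Scramble3 (adjusted p = 0.0529 to 0.06). The GTPase gene Mx2 fell by 1.31 (adjusted p = 0.00639, edgeR). Mx2 is annotated as a polymorphic pseudogene, so its RNA need not stand for a full-length protein. Its neighbour Mx1, which is inactivated by mutation in most laboratory strains, was low in every library, at 0.973, 0.266 and 0.508 CPM in JagKO2, JagKO3 and JagKO4 and 0.952, 0.665 and 0.687 CPM in Scramble1, Scramble2 and Scramble3. These groups overlapped and the log2 fold change was -0.40 (SE 0.51, adjusted p = 0.617, edgeR).

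Eif2ak2 encodes PKR, a kinase that halts translation on binding double-stranded RNA, and it had the only positive log2 fold change of the 35 members. It had 68.9, 51 and 66.9 CPM in JagKO2, JagKO3 and JagKO4, against 50.7, 56.6 and 48.2 CPM in Scramble1, Scramble2 and Scramble3. JagKO3 lay among the Scramble values and the other JAG2KO libraries above them, with a log2 fold change of 0.27 (SE 0.11, adjusted p = 0.0995, edgeR). Without JagKO3 it was called higher, with a log2 fold change of 0.39 (adjusted p = 0.00939, edgeR). Opposite-strand models overlap 47 and 174 of its exon bases, and whether counting used strand is unknown here.

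Isg15 encodes an interferon-induced ubiquitin-like protein that enzymes attach to other proteins, and in mice Herc6 is the main ligase for this step. Isg15 had 5.65, 4.66 and 4.5 CPM in JagKO2, JagKO3 and JagKO4, against 12.7, 18.3 and 11.1 CPM in Scramble1, Scramble2 and Scramble3. Herc6 had 13, 9.88 and 9.6 CPM in the JAG2KO libraries and 15, 16.3 and 13.5 CPM in the Scramble libraries. Both kept the groups apart, Herc6 by a narrow margin between JagKO2 and Scramble3. Isg15 fell by 1.51 on the log2 scale (SE 0.19, adjusted p = 0.000167, edgeR) and Herc6 by 0.47 (SE 0.14, adjusted p = 0.0321, edgeR). Herc6 lost its call without JagKO3, JagKO4, Scramble1 or Scramble2 (adjusted p = 0.0931 to 0.136). It shares 1269 exon bases with a same-strand model, Gm45193.

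Of 5 further induced genes, 4 fell. Ifi44, which encodes a cytoplasmic protein with antiviral activity, had 6.95, 3.33 and 3.39 CPM in JagKO2, JagKO3 and JagKO4, against 22.3, 20.8 and 12 CPM in Scramble1, Scramble2 and Scramble3. Xaf1, a pro-apoptotic antagonist of XIAP, had 8.14, 6.26 and 5.66 CPM in the JAG2KO libraries and 14.6, 14.4 and 10.3 CPM in the Scramble libraries. In both genes JagKO2 was the highest JAG2KO library and Scramble3 the lowest Scramble library, without overlap. Log2 fold changes were -2.02 for Ifi44 (SE 0.29, adjusted p = 0.000391, edgeR) and -0.97 for Xaf1 (SE 0.18, adjusted p = 0.00215, edgeR). Ifi27 and Ifi27l2a, neighbours on chromosome 12 whose products belong to a family of small mitochondrial and nuclear-membrane proteins, had log2 fold changes of -0.47 and -0.81 (adjusted p = 0.0365 and 0.0327, edgeR), with overlapping groups for Ifi27. Ifi27 was not past the threshold without JagKO3, JagKO4, Scramble1 or Scramble2 (adjusted p = 0.0779 to 0.126). Ifi27l2a lost its call without any 1 library other than JagKO2 (adjusted p = 0.0501 to 0.0993). Ifi35 did not pass, with 25.6, 21.3 and 19.9 CPM in the JAG2KO libraries and 23.4, 25 and 22.4 CPM in the Scramble libraries (log2 fold change -0.08, SE 0.11, adjusted p = 0.628, edgeR).

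**Figure D3:**
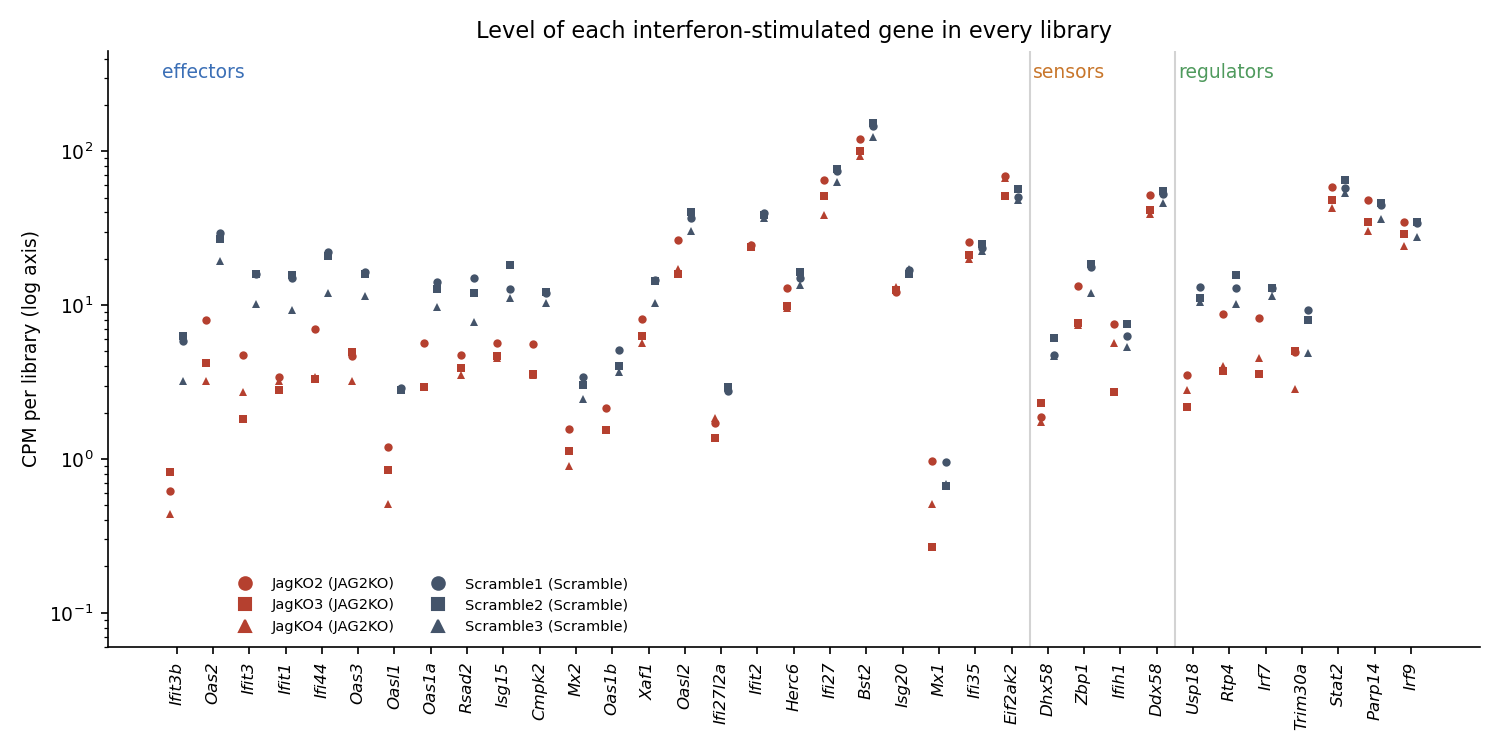
CPM of each member in every library on a log axis, by role, with the 3 JAG2KO libraries left of the 3 Scramble libraries. The groups lie wholly apart with JAG2KO lower for 24 members, and overlap for genes such as Eif2ak2, Ddx58, Stat2, Parp14 and Irf9.

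The sensors differed among themselves. Ddx58 encodes RIG-I and Ifih1 encodes MDA5, the RNA helicases that start the antiviral signal, and neither passed the test. Ddx58 had 52.1, 41.4 and 38.9 CPM in JagKO2, JagKO3 and JagKO4, against 52.4, 55.1 and 46 CPM in Scramble1, Scramble2 and Scramble3. Ifih1 had 7.54, 2.74 and 5.68 CPM in the JAG2KO libraries and 6.26, 7.59 and 5.37 CPM in the Scramble libraries. JagKO2 reached into the Scramble range for both, and JagKO4 did for Ifih1. Log2 fold changes were -0.21 for Ddx58 (SE 0.11, adjusted p = 0.184, edgeR) and -0.27 for Ifih1 (SE 0.29, adjusted p = 0.555, edgeR). Ddx58 passed without JagKO2 (log2 fold change -0.35, adjusted p = 0.0128, edgeR), and the sign for Ifih1 turned without JagKO3 (log2 fold change 0.04).

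Dhx58 encodes LGP2, the third RIG-I-like receptor, which tunes the other two and lacks their signalling domain. It had 1.87, 2.32 and 1.73 CPM in JagKO2, JagKO3 and JagKO4, against 4.76, 6.08 and 4.66 CPM in Scramble1, Scramble2 and Scramble3. The groups were well apart and the log2 fold change was -1.39 (SE 0.22, adjusted p = 0.000801, edgeR). An antisense gene, Dhx58os, overlaps 141 of its exon bases. Zbp1, which detects left-handed nucleic acid and can start necroptosis, had 13.3, 7.64 and 7.39 CPM in the JAG2KO libraries and 17.8, 18.5 and 11.9 CPM in the Scramble libraries. JagKO2 lay above Scramble3, so the groups overlapped, and the log2 fold change was -0.77 (SE 0.23, adjusted p = 0.028, edgeR). Its call ended without JagKO3, JagKO4, Scramble1 or Scramble2 (adjusted p = 0.09 to 0.112), which leaves Dhx58 as the only sensor called lower in each of those fits.

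Among regulators, the feedback inhibitor and the amplifier fell while Stat2 and Irf9 did not pass. Usp18 removes ISG15 from proteins and blocks signalling at the receptor. It had 3.49, 2.18 and 2.82 CPM in JagKO2, JagKO3 and JagKO4, against 13.1, 11.2 and 10.4 CPM in Scramble1, Scramble2 and Scramble3. The groups were far apart (log2 fold change -2.03, SE 0.19, adjusted p = 1.61e-05, edgeR), the smallest p of all 35 members. Irf7, the transcription factor that amplifies interferon production, had 8.19, 3.54 and 4.5 CPM in the JAG2KO libraries and 12.9, 13 and 11.5 CPM in the Scramble libraries. Each JAG2KO library was lower, with JagKO2 nearest to Scramble (log2 fold change -1.20, SE 0.25, adjusted p = 0.004, edgeR). Exons of Usp18 and Irf7 overlap opposite-strand genes over 124 and 45 bases.

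Rtp4, a Golgi chaperone that restrains interferon production, had 8.81, 3.73 and 3.99 CPM in JagKO2, JagKO3 and JagKO4, against 13, 15.8 and 10.2 CPM in Scramble1, Scramble2 and Scramble3. The groups did not overlap, and the log2 fold change was -1.24 (SE 0.29, adjusted p = 0.00826, edgeR). Trim30a, a ubiquitin ligase gene that dampens innate signalling in mice, had 4.92, 5 and 2.86 CPM in the JAG2KO libraries and 9.36, 8.03 and 4.91 CPM in the Scramble libraries. Scramble3 fell within the JAG2KO range, and the log2 fold change was -0.81 (SE 0.27, adjusted p = 0.0447, edgeR). Trim30a lost its call without JagKO4, Scramble1 or Scramble2 (adjusted p = 0.131 to 0.192).

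Stat2 and Irf9, which encode subunits of ISGF3, overlapped between groups. Stat2 had 58.2, 48 and 42.8 CPM in JagKO2, JagKO3 and JagKO4, against 57.6, 64.8 and 53.4 CPM in Scramble1, Scramble2 and Scramble3. Irf9 had 34.9, 28.8 and 24.2 CPM in the JAG2KO libraries and 34.1, 34.6 and 27.8 CPM in the Scramble libraries. JagKO2 was at the Scramble level for both. Log2 fold changes were -0.24 for Stat2 (SE 0.11, adjusted p = 0.139, edgeR) and -0.14 for Irf9 (SE 0.13, adjusted p = 0.486, edgeR). Parp14, an ADP-ribosyltransferase gene linked to interferon responses, had 48.4, 34.7 and 30.4 CPM in the JAG2KO libraries and 44.4, 45.8 and 36.1 CPM in the Scramble libraries, again with JagKO2 high (log2 fold change -0.16, SE 0.15, adjusted p = 0.493, edgeR). Without JagKO2, Stat2 and Parp14 passed the threshold, both with a log2 fold change of -0.37 (adjusted p = 0.011 and 0.0235, edgeR), and 30 members in all were called lower. Irf9 shares 123 exon bases with its same-strand neighbour Rnf31.

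Members also differed in level. Per length of transcript, Bst2, Ifi27, Isg15, Ifi35 and Eif2ak2 were the most abundant in Scramble, and Ifih1 and Mx1 the least, at 2.64 ± 0.467 and 0.683 ± 0.143 TPM (SD, n = 3). When members were split at their median TPM over all 6 libraries (11.5 TPM), the 17 above it had a median log2 fold change of -0.47, with 11 lower, and the 18 others -1.42, with 16 lower. Among all tested genes split at the same level, 16.3% fell above it and 8.15% at or below it, with medians of -0.02 and 0.06. The level used for the split averages in the JAG2KO libraries, so a member's own fall lowers its place in it. The split is a description and was not tested.

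Libraries of the same group held different amounts of these transcripts. Summed over the 35 members, JagKO2, JagKO3 and JagKO4 held 664, 510.2 and 489.7 CPM, and Scramble1, Scramble2 and Scramble3 held 856, 886.3 and 704.4 CPM. The highest JAG2KO sum lay under the lowest Scramble sum. JagKO2 was the highest JAG2KO library for 29 of 35 members, with a median log2 deviation of 0.26 from its group mean, where all tested genes had 0.01. Scramble3 was the lowest Scramble library for 31 of 35, with a median deviation of -0.20, where all tested genes had 0. Leaving out single libraries gave 20 to 30 members called lower, the fewest without Scramble1 and the most without JagKO2.

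The fall was spread over the genome. Members lie on 14 chromosomes and in 24 loci when neighbours within 1 Mb count once. A member fell on 11 of these chromosomes and in 18 of these loci, including 11 of 17 loci that hold a single member. On chromosomes 10, 14 and 17, which hold Stat2, Irf9 and Eif2ak2, the single member did not pass. On 13 of 14 chromosomes the members' median lay below that of the other tested genes there, chromosome 17 being the exception, and 34 of 35 members lay below the median of their chromosome, Eif2ak2 being the exception.

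On some chromosomes the genes other than members were called more often in 1 direction. On chromosome 6, 22.9% of them fell and 12.1% rose, with a median of -0.05, beside -1.25 for the members Herc6 and Usp18. On chromosome 12, 23.5% of the other genes fell and 6.69% rose, and on chromosome 19, 22.8% fell and 6.63% rose, with medians of -0.15 and -0.13. The members there had medians of -1.12 for Rsad2, Cmpk2, Ifi27 and Ifi27l2a and -2.13 for the Ifit genes. On chromosome 3, 24.2% of other genes rose and 4.83% fell, yet Ifi44 fell by 2.02 on the log2 scale. When library factors were computed within each chromosome from genes other than members, 24 members were called lower and 0 higher, with a median of -1.0, where 10.7% of tested genes were called lower. Herc6, Ifi27 and Ifi27l2a lost their calls in that fit (adjusted p = 0.0699, 0.139 and 0.0748). Among 661 other genes within 1 Mb of a member, 13.2% fell and the median was 0. The 4 Oas genes on chromosome 5 had log2 fold changes of -1.29 to -2.31, beside -0.10 to -0.08 for the medians of the 24 to 28 genes around each.

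**Figure D4:**
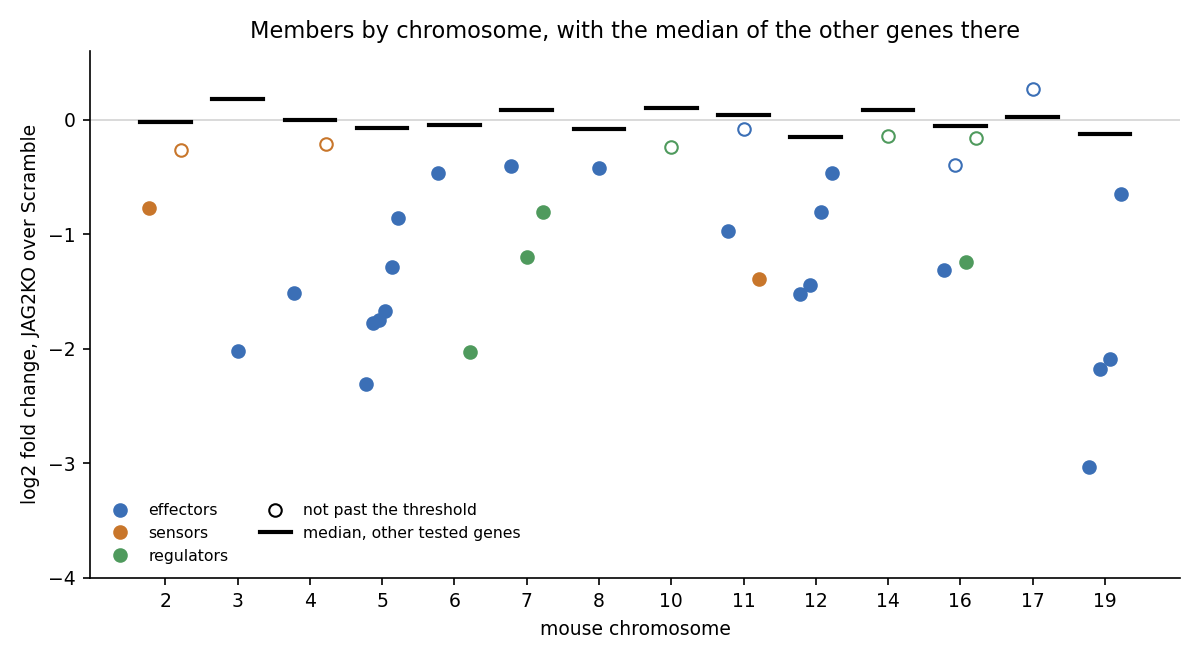
Log2 fold change in JAG2KO over Scramble of each member by mouse chromosome (open points: not past the edgeR threshold), with the median of the other tested genes on that chromosome as a black bar. Only Eif2ak2 on chromosome 17 lies above its bar, and the bars run from -0.15 (chromosome 12) to 0.18 (chromosome 3).

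A second list of 36 interferon-stimulated genes that are not members was fitted in the same table. Of these, 10 fell, 3 rose and 23 did not pass, beside backgrounds of 12.5% and 11.8%, and their median log2 fold change was -0.17. Parp12, an ADP-ribosyltransferase gene, averaged 13.3 CPM in JAG2KO and 46.1 CPM in Scramble (n = 3 each; log2 fold change -1.79, SE 0.14, adjusted p = 3.07e-06, edgeR). Lgals3bp, which encodes a secreted galectin-binding protein, averaged 53.4 CPM in JAG2KO and 109 CPM in Scramble, and Apol9b, an interferon-induced apolipoprotein L gene, 3.04 CPM in JAG2KO and 7.69 CPM in Scramble. Both fell (adjusted p = 0.000262 and 0.000579, edgeR). Mov10, an RNA helicase gene, Slfn5, of the schlafen family, and the galectin gene Lgals9 rose with log2 fold changes of 0.23, 0.95 and 0.23 (adjusted p = 0.0327, 0.0397 and 0.0438, edgeR). All 3 lost their calls without JagKO2 (adjusted p = 0.0753 to 0.095) or without Scramble1 (adjusted p = 0.075 to 0.117). With library factors computed within each chromosome, Mov10, on chromosome 3, had a log2 fold change of 0.07 (adjusted p = 0.532) and Lgals9 was not past the threshold (adjusted p = 0.0729). The count that fell was 14 without JagKO2, 6 without JagKO3, 4 without JagKO4, 6 without Scramble1 and 5 without Scramble2.

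A further list held interferon, receptor and signalling genes. It also holds genes induced by interferon, such as Irf1 and the feedback inhibitor Socs1, so it is not limited to steps before the interferon-stimulated genes. Of 31 interferon, receptor and signalling genes, 21 had enough counts to be tested, and of these 5 rose, 0 fell and 16 did not pass. Over all tested genes, 11.8% rose and 12.5% fell. Those with the smallest p were the transcription factor genes Irf5 and Irf1 and the interferon-gamma receptor gene Ifngr1, with log2 fold changes of 1.16, 0.46 and 0.39 (adjusted p = 0.00126, 0.0032 and 0.00345, edgeR). The other genes that rose were Jak1 and Socs1, with log2 fold changes of 0.23 and 0.38 (adjusted p = 0.0208 and 0.0454, edgeR). Without Scramble1 or Scramble2, Jak1 and Socs1 lost their calls and 3 genes were called higher. Mavs, the adaptor gene of RIG-I and MDA5, named after its values were seen, was called lower without JagKO2 (adjusted p = 0.0175). The type I receptor genes Ifnar1 and Ifnar2 had log2 fold changes of 0.13 and 0.03 (adjusted p = 0.217 and 0.841, edgeR). Among interferon genes, Ifnb1 had 0, 1 and 0 counts in JagKO2, JagKO3 and JagKO4 and 0, 10 and 0 counts in Scramble1, Scramble2 and Scramble3. Ifna2, Ifna4, Ifne, Ifnk, Ifnl2 and Ifnl3 had 0 counts in every library, which allows up to 0.068 to 0.0811 CPM per library for counting error alone. Trex1 was also listed at 0, which need not mean that it was not expressed, since how reads of overlapping genes were counted is not stated.

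Transcripts used as markers of other cell types were present and some differed between groups. Bulk RNA does not show whether they came from other cells or from the tumour cells. Macrophage markers summed to 86.5 to 107 CPM in JAG2KO and 49.7 to 59.5 CPM in Scramble, with 4 of 12 tested markers higher and 0 lower. The shares over all tested genes were 11.8% higher and 12.5% lower. Endothelial markers summed to 39.3 to 52.9 CPM in JAG2KO and 25.7 to 29 CPM in Scramble, with 4 of 8 higher and 0 lower. Fibroblast and pericyte markers summed to 811 to 1240 CPM in JAG2KO and 713 to 851 CPM in Scramble, with 2 of 7 higher and 1 lower. Neutrophil markers summed to 0.541 to 1.73 CPM in JAG2KO and 1.33 to 3.18 CPM in Scramble. T and NK cell markers summed to 0.785 to 3.43 CPM in JAG2KO and 1.38 to 1.9 CPM in Scramble, and B cell markers to 0.297 to 3 CPM in JAG2KO and 0.476 to 0.763 CPM in Scramble. For plasmacytoid dendritic cells, which make much interferon, the sums were 0.479 to 0.622 CPM in JAG2KO and 0.275 to 0.363 CPM in Scramble. The sums for these cells rest on few reads, with at most 17 counts for any marker in a library. Only Cox6a2 had enough counts to be tested, and it did not pass (adjusted p = 0.804, edgeR). No marker of these lists was at 0 in all libraries. Ptprc, which encodes the CD45 that the sort selected against, averaged 2.92 CPM in JAG2KO and 2.15 CPM in Scramble. Lung epithelium and carcinoma markers summed to 283 to 338 CPM in JAG2KO and 389 to 398 CPM in Scramble. Of its 4 tested markers 1 fell, the keratin gene Krt8, at 4.13 CPM in JAG2KO and 124 CPM in Scramble. The other tested markers did not pass, with Krt18, the most abundant, higher in all 3 JAG2KO libraries (log2 fold change 0.20, adjusted p = 0.0637, edgeR) and Epcam and Cdh1 overlapping between groups. The part of other cells, or of differences between the tumour cell populations, in the fall was not tested.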

How the data were processed

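The authors deposited raw counts per gene for 6 libraries in 1 table of versioned Ensembl IDs. Per the submitters' processing notes, the tools included STAR 2.7.7a and HTSeq 0.11.2. Not given in the sources used here are their settings, strand, build and annotation. Scramble columns match sample titles. JAG2KO columns are numbered 2 to 4 and the titles 1 to 3, so they were used without replicate numbers. No 2 libraries of a group agreed within sampling noise (chi-square divided by its degrees of freedom was 12.2 to 31, for genes reaching 20 counts in the pair).

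The main test was that of edgeR 4.0.16 (R 4.3.3) on the deposited counts of all genes kept by filterByExpr (minimum count 10, minimum total 15), with TMM factors, a quasi-likelihood F test on 4 residual degrees of freedom, and calls at a Benjamini-Hochberg adjusted p under 0.05. The SE is the log2 fold change over the square root of F. Alternatives were RLE factors, library totals, 2 other filters, DESeq2 1.42.0, limma-voom (limma 3.58.1), factors within chromosomes of at least 100 genes, and leaving out each library. The procedures were tested on simulated data.

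Symbols, coordinates and exon lengths (for TPM) come from GENCODE M21 on GRCm38, which may differ from the annotation counted on. Deviations used log2(CPM + 0.5). Members, lists and roles were chosen with earlier results of these data known. Values per library are given for each sensor and regulator, the 2 members with the smallest p of each effector family and each member not past the threshold. From the other gene lists, the 3 genes with the smallest p in each direction are named with group means or log2 fold changes. Proteins were not analysed here.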

Additional observations from a re-analysis of the deposited data

How the results depend on the processing

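Between 20 and 30 members were called lower under all 13 alternatives, with a median log2 fold change of -0.88 to -1.14, and 20 of the 27 were called lower in every one. The 7 others were Bst2, Isg20, Herc6, Ifi27, Ifi27l2a, Zbp1 and Trim30a. RLE factors, library totals, no filter, the filter of CPM 1 in 3 libraries, DESeq2 and limma-voom each gave 27. Without a filter, 1 member was called higher, the effector Eif2ak2. In that fit Ifi27l2a lost its call (adjusted p = 0.0655, edgeR) and Stat2 was called lower (adjusted p = 0.0468, edgeR). With scaling within chromosomes, 1 gene of the interferon, receptor and signalling list was called lower (Sting1, named after its values were seen, adjusted p = 0.0394). With the Oas and Oasl genes and Eif2ak2 as sensors, 8 sensors were lower and the medians were -1.29 for sensors and -0.97 for effectors. Leaving out single libraries gave 0 to 1 members called higher (the effector Eif2ak2, without JagKO3). The same fits gave 1 to 3 sensors called lower, with medians of -0.85 to -0.4, and 3 to 6 regulators called lower. Of the second list of interferon-stimulated genes, 4 to 14 were called lower and 0 to 3 higher. Of the interferon, receptor and signalling list, 0 to 1 genes were called lower and 3 to 5 higher. Over all genes these fits called 1349 to 2093 lower and 1356 to 1926 higher, against 2005 and 1891 with all libraries. Of 454 values of single members under alternatives, 418 kept direction and call, 29 lost the call, 6 gained it and 1 turned sign (Ifih1, whose log2 fold change ran from -0.6 without JagKO2 to 0.04 without JagKO3). The cause of these changes was not tested, beyond fewer libraries in the fits that leave 1 out. The core followed by C was found in 11 of 24 members, and with genes within 1 Mb in place of the whole chromosome 33 of 35 members lay below the local median. Of the 33 members with 5 or more tested genes within 1 Mb, 31 lay below it. No paired analysis was possible because the JAG2KO columns carry numbers other than those of the sample titles. Depth limits statements on interferon genes, which had at most 10 counts in a library.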
